A study of Mus musculus with 6 samples.

Results

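The steroid, prolactin and growth hormone receptors are the 8 genes through which mammary tissue reads its main hormonal signals: *Esr1* and *Esr2* (estrogen receptors), *Pgr* (progesterone receptor), *Nr3c1* (glucocorticoid receptor), *Vdr* (vitamin D receptor), *Rara* (retinoic acid receptor alpha), *Prlr* (prolactin receptor) and *Ghr* (growth hormone receptor). They were chosen by symbol, and all 8 were found among the 24061 gene symbols of the RNA-seq count table. Of these, 7 passed the filter on low counts, and *Esr2* did not. The cells were CD45+CD11b+F4/80+ macrophages sorted by flow cytometry from digested inguinal mammary glands of female FVB/N mice for which no mutation or treatment is named. They were divided by surface Lyve-1, a hyaluronan receptor best known from lymphatic vessels, into Lyve-1- and Lyve-1+ subsets of F4/80+ cells. Each subset had 3 libraries, and each library held the cells of 4 pooled mice. Replicate 1 of each subset came from mice aged 6 weeks, and replicates 2 and 3 from mice aged 10 weeks, so age and the identity of the single 6-week pool cannot be told apart. No label says whether both subsets of a number came from the same mice, and p-values measure the spread between these pools.

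Steroid, vitamin D and retinoic acid receptors are transcription factors that bind a small lipid-soluble ligand inside the cell. *Nr3c1*, *Esr1*, *Esr2* and *Pgr* act mainly as dimers of themselves, whereas *Vdr* and *Rara* pair with retinoid X receptors. *Prlr* and *Ghr* are membrane receptors of the cytokine receptor family that signal through the kinase JAK2 and the STAT5 factors. In the mammary gland, estrogen and growth hormone drive ductal growth at puberty, progesterone drives side branching and prolactin drives milk production, with *Esr1*, *Pgr* and *Prlr* best known from luminal epithelial cells.

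Library totals ran from 6478007 to 21406839 counts, and values below are CPM (counts after TMM scaling for library size), unless raw counts or a level per kilobase are named. *Lyve1* separated the subsets as labelled, with 17 to 75 raw counts in the Lyve-1- libraries and 4735 to 30871 in the Lyve-1+ libraries. The 8 macrophage markers present in the table summed to 4560 to 7090 CPM in every library, with none at 0, whereas the F4/80 gene *Adgre1* was not found under that symbol. Fibroblast markers (10 genes, none at 0) summed to 1080 to 1270 CPM in Lyve-1- and 1870 to 7510 CPM in Lyve-1+ libraries. T cell markers (5 genes) summed to 70.7 to 124 CPM in Lyve-1- and 18.1 to 58.5 CPM in Lyve-1+ libraries, with at most 1 gene at 0 in a library. Some libraries also held counts over olfactory receptor genes, and whether the macrophages transcribed any of these genes was not tested. The number detected, of 1114 such genes, was 652 for Lyve-1- replicate 3, 370 for Lyve-1+ replicate 1, 134 for Lyve-1+ replicate 2, and 34 or fewer for each of the other 3 libraries. In sorted bulk RNA, fewer cells of a type and less RNA per cell cannot be told apart.

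Levels of the receptors differed widely. Per kilobase of exon, *Rara* stood at 40.3 ± 1.65 CPM in Lyve-1- and 33.1 ± 5.76 in Lyve-1+ libraries (SD, n = 3 here and below), and *Nr3c1* at 23.5 ± 1.47 and 38.3 ± 6.56. *Vdr* followed at 10.9 ± 1.23 CPM per kilobase in Lyve-1- and 2.76 ± 1.88 in Lyve-1+ libraries. In the Lyve-1- subset these levels did not overlap, and their order was *Rara*, *Nr3c1*, *Vdr*. In the Lyve-1+ subset the ranges of *Nr3c1* (34.3 to 45.9) and *Rara* (28.8 to 39.6) overlapped, so their order there was not resolved, whereas *Vdr* (1.65 to 4.93) lay below both and overlapped *Prlr* (1.07 to 2.04). In Lyve-1- libraries the mean of *Rara* exceeded that of 92.6% of tested genes on this scale, that of *Nr3c1* 86.7% and that of *Vdr* 72.9%.

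The other 5 receptors averaged under 2 CPM per kilobase in both subsets. *Prlr* was at 1.62 ± 1.63 in Lyve-1- and 1.5 ± 0.497 in Lyve-1+ libraries, and *Esr1* at 0.777 ± 0.272 and 1.11 ± 0.428. *Esr2* (0.69 ± 1.13 and 0.294 ± 0.415), *Ghr* (0.148 ± 0.194 and 0.323 ± 0.18) and *Pgr* (0.0739 ± 0.128 and 0.104 ± 0.0932) were lower on average. In Lyve-1- libraries the ranges of neighbours in this order overlapped. In Lyve-1+ libraries, where *Ghr* came before *Esr2*, *Esr1* (0.863 to 1.61) lay above *Ghr* (0.159 to 0.515), and the other neighbours overlapped.

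**Figure D1:**
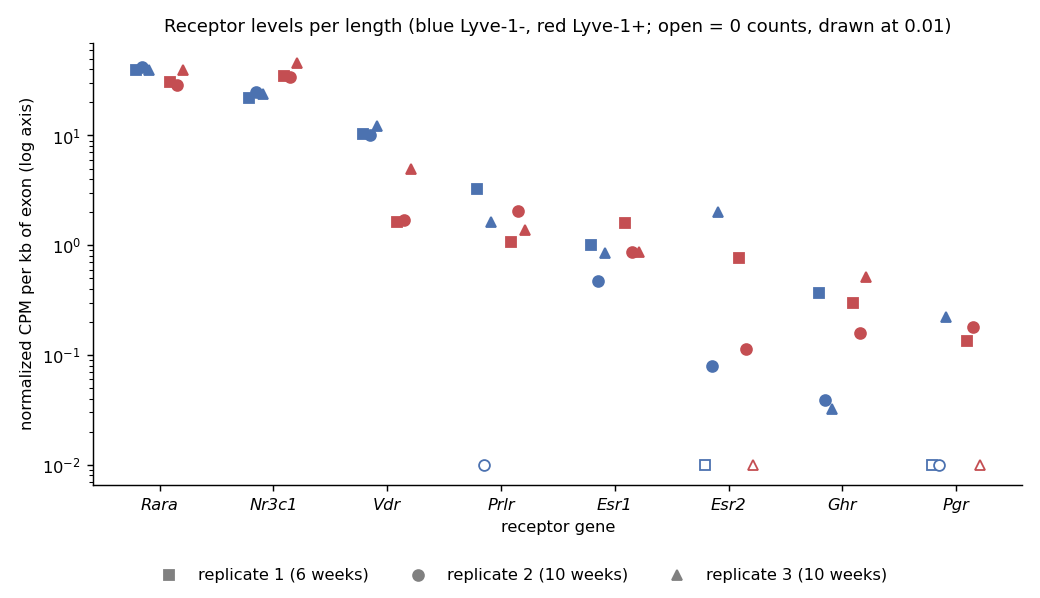
Level per kilobase of exon (TMM CPM per kb, log axis) of the 8 receptors; each point is a library, blue for Lyve-1- and red for Lyve-1+, and libraries at 0 are drawn at the foot of the axis. *Rara* and *Nr3c1* lie above the other receptors in both subsets, and *Vdr* is lower in every Lyve-1+ library than in every Lyve-1- library.

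None of the 7 receptors tested was called different between the subsets at an adjusted p under 0.01 with a log2 difference larger than 1 up or down (edgeR quasi-likelihood test, Benjamini-Hochberg adjusted over 13348 genes), a threshold that 0.112% of all genes tested passed, nor did any have an adjusted p under 0.05, which 0.629% did. DESeq2 also called 0 of them at the 0.01 threshold, although its adjusted p for *Vdr* was 0.0229, which is under 0.05. At an unadjusted p under 0.05, 2 of 7 passed (*Vdr* and *Nr3c1*), beside 7.69% of all genes tested.

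*Vdr* had the largest separation between the subsets, and was lower in Lyve-1+ cells. The gene lies on mm10 chr15:97854425-97910630, minus strand. It measured 58.4, 56.5 and 69.4 CPM in Lyve-1- replicates 1, 2 and 3. In the Lyve-1+ libraries of the same numbers it measured 9.3, 9.58 and 27.8 CPM. Every Lyve-1+ library lay below every Lyve-1- library, as 6.5% of all genes tested did, and Lyve-1+ replicate 3 was the highest of its subset. The means were 61.43 ± 6.96 and 15.57 ± 10.6 CPM, a 3.94-fold lower mean in Lyve-1+ cells. The log2 fold change was -1.99 (SE 0.53, unadjusted p = 0.00202, edgeR quasi-likelihood test), with an adjusted p of 0.152, so it was not called. The sum of the T cell markers was also lower in all 3 Lyve-1+ libraries (18.1 to 58.5 against 70.7 to 124 CPM). Only 2 of the 5 genes were lower in every Lyve-1+ than in every Lyve-1- library, and *Cd3d* was highest in Lyve-1+ replicate 3 (26.8 CPM). The part of T cell RNA in the *Vdr* difference was not tested. Without Lyve-1+ replicate 3 the log2 fold change was -2.72 with an adjusted p of 0.0118, and no alternative brought it below 0.01 (range 0.0118 to 0.921).

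*Vdr* and *Rara* are both well detected, and the 250 bases before their annotated start sites in RefSeq are shown. Capitals mark GC boxes (GGGCGG, on either strand), the motif of Sp-family factors. RefSeq's GRCm38.p6 windows of 250 bases numbered 32851, and 32.7% of them held a GC box. The *Vdr* window is chr15:97908297-97908546 on the minus strand and held 3. Of the 4 *Rara* windows, which held 4, 4, 0 and 1, the first is shown, chr11:98937446-98937695 on the plus strand. Both printed windows lie inside the gene spans given here, since other annotated transcripts start farther upstream. The core hexamer of vitamin D and retinoic acid receptor sites (AGGTCA, either strand), present in 14% of windows, was in neither.
Vdr: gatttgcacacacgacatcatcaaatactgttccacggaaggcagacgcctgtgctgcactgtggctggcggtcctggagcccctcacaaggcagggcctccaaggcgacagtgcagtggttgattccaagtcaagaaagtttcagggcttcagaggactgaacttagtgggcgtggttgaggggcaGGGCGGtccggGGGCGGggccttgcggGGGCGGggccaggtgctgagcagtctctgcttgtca
Rara: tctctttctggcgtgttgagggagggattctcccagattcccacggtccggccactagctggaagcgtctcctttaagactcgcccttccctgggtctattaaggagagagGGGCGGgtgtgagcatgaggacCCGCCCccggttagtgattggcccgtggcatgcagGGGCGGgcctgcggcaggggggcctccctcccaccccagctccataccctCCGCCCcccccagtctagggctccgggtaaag

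*Rara* (mm10 chr11:98927818-98974942, plus strand) was well detected and overlapped between the subsets. It measured 172, 184 and 171 CPM in Lyve-1- replicates 1 to 3 and 134, 126 and 173 CPM in Lyve-1+ replicates 1 to 3. Lyve-1+ replicate 3 was level with the Lyve-1- libraries and the other Lyve-1+ libraries were lower. The log2 fold change was -0.285 (SE 0.27, adjusted p = 1).

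Among the retinoid partners, the 5 genes *Rarb*, *Rarg*, *Rxra*, *Rxrb* and *Rxrg* were listed as a group and 4 were tested, with 2 higher and 2 lower in Lyve-1+ cells, 0 called by edgeR and 1 with an unadjusted p under 0.05 (7.69% of all genes). *Rxra*, which encodes a retinoid X receptor that can pair with *Vdr* and *Rara*, was named after its values were seen. It measured 33.5, 37.2 and 38.8 CPM in Lyve-1- and 112, 105 and 94.2 CPM in Lyve-1+ replicates 1, 2 and 3. All Lyve-1+ libraries were higher, with a log2 fold change of 1.51 (SE 0.34, unadjusted p = 0.000453, adjusted p = 0.0617), which missed the threshold; DESeq2 gave an adjusted p of 0.00566 and called it. *Rarb*, with the largest positive value of the list, had a log2 fold change of 1.95 (SE 1.4, adjusted p = 0.965), and *Rxrb*, with the largest negative value, -0.544 (SE 0.73, adjusted p = 1). Of the 15 genes that make, break down or respond to retinoic acid, 12 were tested, 2 had an unadjusted p under 0.05, beside 7.69% of all genes, and none was called, beside 0.112%. *Aldh1a3*, an enzyme of retinoic acid synthesis, had the largest positive value at 2.62 (SE 2.4, adjusted p = 1) and *Tgm2* the largest negative at -1.71 (SE 0.66, adjusted p = 0.564).

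**Figure D2:**
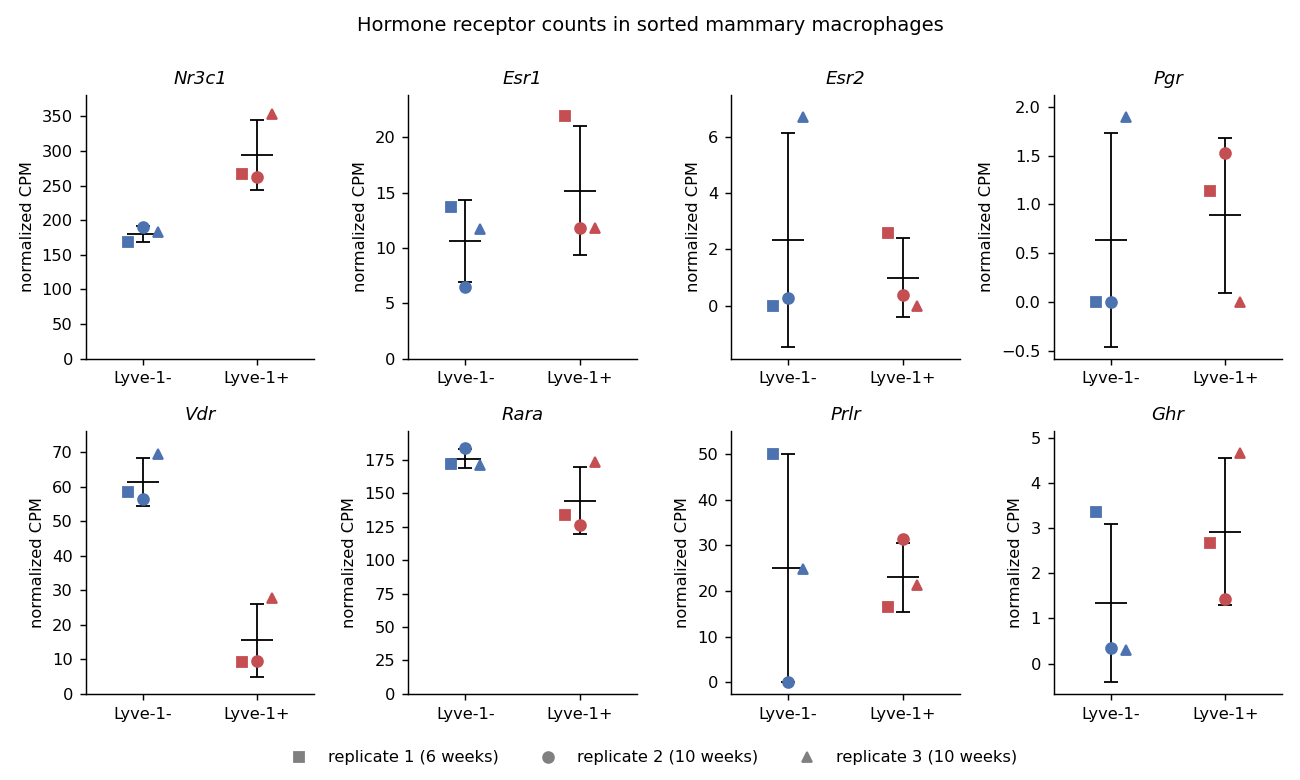
TMM CPM of each receptor in the 6 libraries; points are single pools, the horizontal line is the mean and the error bar 1 SD of 3 libraries, so a bar may pass below 0. The subsets separate for *Vdr* and *Nr3c1* and overlap for the other 6 receptors.

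*Nr3c1* (mm10 chr18:39410545-39519421, minus strand), the glucocorticoid receptor, was higher in each Lyve-1+ library than in each Lyve-1- library. It measured 168, 190 and 183 CPM in Lyve-1- and 267, 263 and 353 CPM in Lyve-1+ replicates 1, 2 and 3. The ratio of Lyve-1+ to Lyve-1- in libraries of one number was 1.59, 1.38 and 1.93, and 7.82% of all genes tested had all 3 Lyve-1+ libraries above. The means were 180.3 ± 11.3 and 294.4 ± 50.4 CPM, 1.63-fold higher in Lyve-1+. The log2 fold change of 0.707 (SE 0.26, edgeR unadjusted p = 0.0159, adjusted p = 0.409) lay below the limit of 1 and was not called. The sum of the fibroblast markers was also higher in all 3 Lyve-1+ libraries (1870 to 7510 against 1080 to 1270 CPM). Only 6 of the 10 genes were higher in every Lyve-1+ than in every Lyve-1- library, and *Loxl1* was lowest in Lyve-1+ replicate 2 (2.44 CPM). The list includes collagen genes, and the paper names collagen-associated genes among those higher in Lyve-1+ cells. The part of fibroblast RNA in the *Nr3c1* difference was not tested.

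The genes of glucocorticoid metabolism and response numbered 18, all tested, with 9 higher and 9 lower in Lyve-1+ cells and a median log2 fold change of 0.0636, beside -0.0108 over all genes. *Cd163*, the hemoglobin scavenger receptor that glucocorticoids are known to induce in macrophages, was called and rose from 213.9 ± 67.3 to 1184 ± 619 CPM. It measured 291, 182 and 169 CPM in Lyve-1- and 1900, 874 and 781 CPM in Lyve-1+ replicates 1, 2 and 3, a log2 fold change of 2.47 (SE 0.36, adjusted p = 0.00805, edgeR quasi-likelihood test). The call was lost without Lyve-1- replicate 2 (adjusted p = 0.0165), without Lyve-1- replicate 3 (0.0707) and without both Lyve-1- replicate 3 and Lyve-1+ replicate 1 (0.132), and with the olfactory density subtracted (0.011). *Ddit4* had the largest negative value of the list, -1.26 (SE 1.5, adjusted p = 1). Among other classical glucocorticoid targets, named after their values were seen, *Cebpd* had a log2 fold change of 1.73 (SE 0.39, adjusted p = 0.0668, and 0.00594 by DESeq2), *Fkbp5* 1.44 (SE 0.63, adjusted p = 0.582) and *Per1* -0.568 (SE 0.26, adjusted p = 0.623), so they did not all lie on one side. *Tsc22d3*, which encodes GILZ, was -0.261 (SE 0.4, adjusted p = 1).

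The estrogen and progesterone receptors were scarce. *Esr1* (mm10 chr10:4611593-5005614, plus strand) measured 13.7, 6.49 and 11.7 CPM in Lyve-1- and 21.9, 11.8 and 11.8 CPM in Lyve-1+ replicates 1 to 3. The subsets overlapped at 11.8 to 13.7 CPM, and Lyve-1+ replicate 1 was the highest. The log2 fold change was 0.517 (SE 0.83, adjusted p = 1).

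Raw counts of *Esr1* were 163, 73 and 80 in Lyve-1- and 288, 246 and 94 in Lyve-1+ replicates 1, 2 and 3. To give a scale for counts that need not be transcripts, the density of counts over olfactory receptor genes in the same library, times the exon length of *Esr1*, gave 0.468, 1.27 and 36.1 counts and 13.9, 16 and 0.709 counts. *Esr1* exceeded this in all 6 libraries, by the least in Lyve-1- replicate 3.

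*Esr2* (mm10 chr12:76120419-76177259, minus strand) had raw counts of 0, 3 and 46 in Lyve-1- and 34, 8 and 0 in Lyve-1+ replicates 1 to 3. *Pgr* (mm10 chr9:8899833-8968611, plus strand) had raw counts of 0, 0 and 13 and of 15, 32 and 0. Both had most of their counts in the libraries with the most olfactory receptor counts, namely Lyve-1- replicate 3 and Lyve-1+ replicates 1 and 2. For *Esr2* the olfactory density gave 8.89, 3.42 and 3.93 counts in these libraries, in that order, each below the count observed. For *Pgr* it gave 22.6, 8.68 and 9.98 counts there. The observed 13 of Lyve-1- replicate 3 lay below it, and the observed 15 and 32 of Lyve-1+ replicates 1 and 2 lay above it. Whether these counts are transcripts of the receptors was not tested. Where no read was counted, up to 3 counts remain possible, which was 0.252 CPM in Lyve-1- replicate 1 and 0.378 CPM in Lyve-1+ replicate 3, and covers counting error only.

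*Pgr* had a log2 fold change of 0.524 (SE 2.8, adjusted p = 1), and *Esr2*, outside the filter, -1.2 (SE 3.3, adjusted p = 0.998, no filter on low counts). Of 12 estrogen and progesterone targets and partners, 9 were tested, 5 were higher and 4 lower in Lyve-1+ cells, 1 had an unadjusted p under 0.05 (7.69% of all genes did) and none was called. *Tnfsf11* (RANKL, a progesterone target in the epithelium) had the largest positive value at 2.54 (SE 2.7, adjusted p = 1), and *Foxa1*, a partner of estrogen receptor, the largest negative at -1.46 (SE 2.5, adjusted p = 1). In the list of 10 other hormone receptors, 9 were tested, 1 had an unadjusted p under 0.05 (7.69% of all genes) and none was called. *Gper1*, the membrane estrogen receptor, had the largest positive log2 fold change, 4.55 (SE 2.7, adjusted p = 0.864). Leaving out single libraries gave 3.39 to 9.2 for *Gper1*, 0.522 to 8.78 for *Tnfsf11* and 2.03 to 9.27 for *Aldh1a3*. Each highest value came without Lyve-1- replicate 3, when the remaining Lyve-1- libraries were at 0 and the fitted value depended on the prior count, as it did for *Gper1* with the olfactory density subtracted (9.04). *Thra*, a thyroid hormone receptor named after its values were seen, was at 1.24 (SE 0.44, adjusted p = 0.372).

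**Figure D3:**
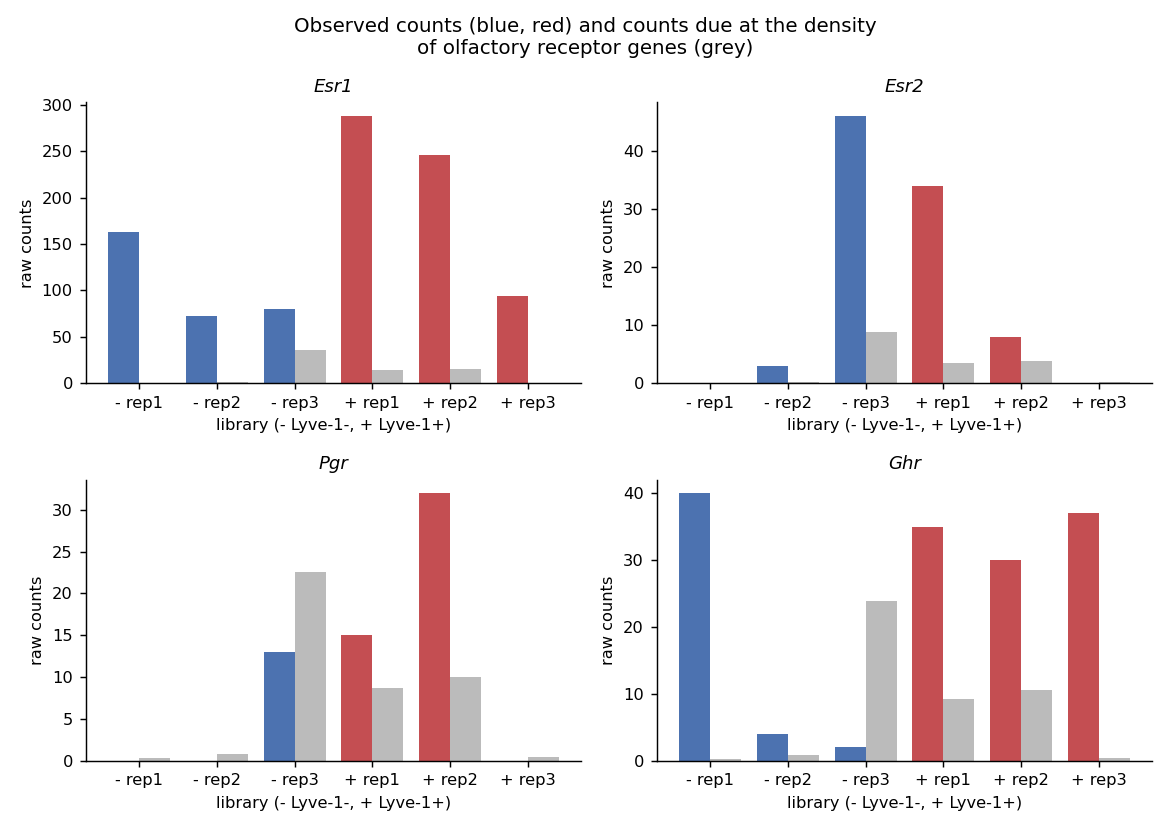
Raw counts of *Esr1*, *Esr2*, *Pgr* and *Ghr* in each library, blue for Lyve-1- and red for Lyve-1+, beside the counts that the library's olfactory receptor density gives for the exon length (grey). The *Pgr* bar of Lyve-1- replicate 3 (13 counts) stays below the grey bar (22.6), and those of Lyve-1+ replicates 1 and 2 (15 and 32) pass theirs (8.68 and 9.98).

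*Prlr* (mm10 chr15:10177238-10349180, plus strand) lay far apart between libraries of the Lyve-1- subset. It measured 50, 0 and 24.8 CPM in Lyve-1- and 16.4, 31.3 and 21.3 CPM in Lyve-1+ replicates 1 to 3. Lyve-1- replicate 1 was the highest and Lyve-1- replicate 2 had no count at all among 11230207, so the subsets overlapped fully. The means were 24.93 ± 25 and 23 ± 7.62 CPM, and the log2 fold change was -0.115 (SE 1.4, adjusted p = 1). Its sign turned when Lyve-1- replicate 1 (0.914) or Lyve-1+ replicate 1 (0.113) was left out. Of its exonic bases, 1.32% are shared with *Gm21973* on the same strand. The olfactory density gave at most 40.5 counts for its length (Lyve-1- replicate 3, 170 observed), and *Prlr* exceeded it in the 5 libraries where it had counts.

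The mammary epithelium markers (15 genes) also varied between libraries, summing to 548, 63.8 and 290 CPM in Lyve-1- and to 147, 150 and 79.1 CPM in Lyve-1+ replicates 1 to 3. Both *Prlr* and the marker sum were highest in Lyve-1- replicate 1 and lowest in Lyve-1- replicate 2. That library had 4 markers at 0, as did Lyve-1+ replicate 3, where *Prlr* was at 21.3 CPM. *Csn3*, the milk protein kappa-casein, measured 50, 0.178 and 20.6 CPM in Lyve-1- and 14.3, 22.9 and 19.7 CPM in Lyve-1+ libraries. The markers did not all follow this order. Of the 15, 7 peaked in Lyve-1- replicate 1 and the other 8 in replicate 3 of that subset, while 9 were lowest in Lyve-1- replicate 2. As many were lowest in Lyve-1+ replicate 3, ties at 0 counted in both. *Epcam*, an epithelial adhesion molecule, measured 25, 23.5 and 29.6 CPM in Lyve-1- and 10.4, 11.4 and 3.15 CPM in Lyve-1+ libraries, lowest in Lyve-1+ replicate 3. The part of epithelial RNA in the *Prlr* counts was not tested. Among 2305 genes that varied at least 0.75 times as much as *Prlr*, the pair closest to its pattern by mean absolute difference of centred log2 CPM were *Hinfp* (0.341) and *Csn3* (0.348).

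**Figure D4:**
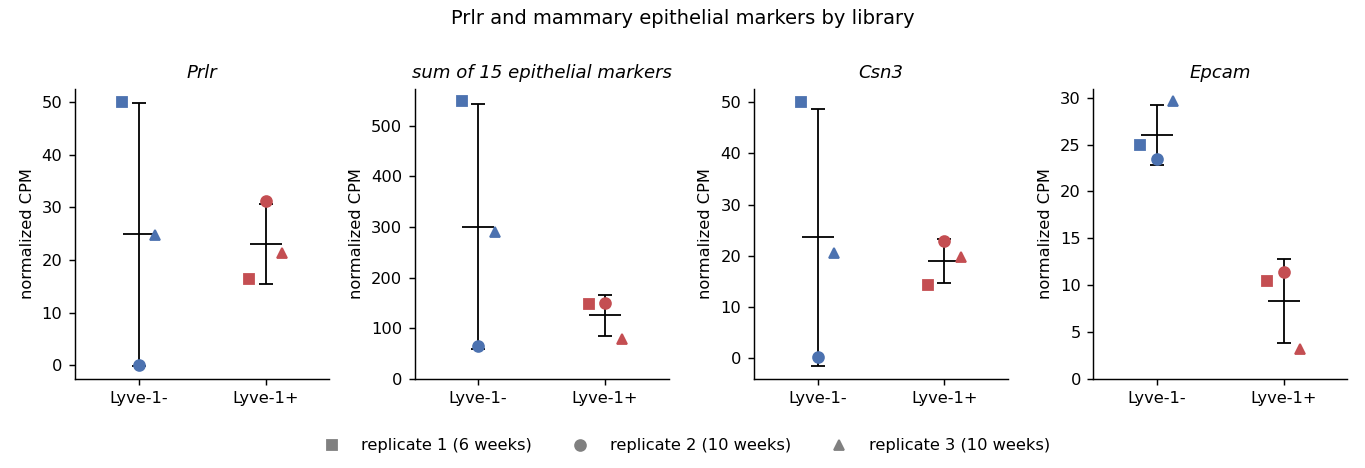
CPM of *Prlr*, the 15 summed epithelial markers, *Csn3* and *Epcam* in each library, blue for Lyve-1- and red for Lyve-1+; the horizontal line is the mean and the error bar 1 SD of 3 libraries. *Prlr*, the sum and *Csn3* are highest in Lyve-1- replicate 1 and lowest in Lyve-1- replicate 2, whereas *Epcam* is highest in Lyve-1- replicate 3 and lowest in Lyve-1+ replicate 3.

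*Ghr* (mm10 chr15:3317760-3583492, minus strand) was low, and near the limit of detection in Lyve-1- replicates 2 and 3. It had raw counts of 40, 4 and 2 in Lyve-1- and of 35, 30 and 37 in Lyve-1+ replicates 1, 2 and 3. In CPM these were 3.36, 0.355 and 0.292 against 2.67, 1.44 and 4.66, with the highest value in Lyve-1+ replicate 3 and both low values in Lyve-1- libraries of 10-week-old mice. The means were 1.336 ± 1.75 and 2.922 ± 1.63 CPM, and the log2 fold change was 1.12 (SE 2.3, adjusted p = 1). It ranged from 0.575 without Lyve-1+ replicate 3 to 3.12 without Lyve-1- replicate 1, and was 3.17 in the 10-week libraries alone. The olfactory density gave 0.31, 0.841 and 23.9 counts for Lyve-1- replicates 1, 2 and 3. The observed 40 and 4 of replicates 1 and 2 lay above it, and the observed 2 of replicate 3 lay below it. For the Lyve-1+ libraries it gave 9.19, 10.6 and 0.47 counts, below those observed. The fibroblast sum was also highest in Lyve-1+ replicate 3, and its part here was not tested.

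Genes of prolactin and growth hormone signalling numbered 16, of which 14 were tested, 7 higher and 7 lower in Lyve-1+ cells. The hormone genes *Prl* and *Gh* themselves had at most 0.292 CPM in any library and were not tested. *Igf1*, which growth hormone signalling is known to induce in many tissues, was called and rose from 42.2 ± 9.56 to 235 ± 82.2 CPM. It measured 37.4, 53.2 and 36 CPM in Lyve-1- and 303, 144 and 258 CPM in Lyve-1+ replicates 1, 2 and 3, with a log2 fold change of 2.48 (SE 0.35, adjusted p = 0.0053, edgeR quasi-likelihood test). Each Lyve-1+ value exceeded each Lyve-1- value. The fibroblast marker sum, which includes collagen genes, was likewise higher in each Lyve-1+ library (1870 to 7510 against 1080 to 1270 CPM), though not every marker was. The part of fibroblast RNA in the *Igf1* and *Cd163* differences was not tested. The *Igf1* call was lost in the 10-week libraries alone (adjusted p = 0.0708), without Lyve-1- replicate 3 (0.0468) and without both that library and Lyve-1+ replicate 1 (0.197).

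*Socs2*, a STAT5-induced inhibitor of growth hormone signalling, had the largest negative value of the list. It measured 12.3, 43.2 and 27.8 CPM in Lyve-1- and 1.52, 6.47 and 0.126 CPM in Lyve-1+ libraries, a log2 fold change of -3.33 (SE 1.1, adjusted p = 0.308). *Jak2*, named after its values were seen, measured 600, 498 and 486 CPM in Lyve-1- and 84.1, 223 and 288 CPM in Lyve-1+ libraries (-1.41, SE 0.37, adjusted p = 0.145, and 0.00526 by DESeq2). Both genes were lower in every Lyve-1+ library without passing the threshold in edgeR. The *Stat5a* and *Stat5b* libraries overlapped between the subsets.

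Across all 9 pathway lists, 110 genes were listed and 94 tested, of which 45 were higher and 49 lower in Lyve-1+ cells, with a median log2 fold change of -0.0423 beside -0.0108 over all genes. *Cd163* and *Igf1* were the 2 genes called (0.112% of all genes tested were), 16 of 94 genes had an unadjusted p under 0.05 (7.69% of all genes), and 159 calls over all genes by DESeq2 compare with 15 by edgeR. *Nr4a3*, an orphan nuclear receptor induced by activation signals and named after its values were seen, had an adjusted p of 0.0438 and measured 729, 938 and 508 CPM in Lyve-1- and 312, 282 and 145 CPM in Lyve-1+ libraries (log2 fold change -1.56, SE 0.32); DESeq2 called it, with an adjusted p of 5.33e-05. In the same list of 13 lipid-sensing and orphan receptors, *Nr1d1* (Rev-erb alpha) had the largest positive value, 1.89 (SE 0.43, adjusted p = 0.0725, and 0.00687 by DESeq2), and *Ppara* the largest negative, -3.23 (SE 2.1, adjusted p = 0.922). Chaperones and coregulators (14 genes) gave no gene with an unadjusted p under 0.05, and their extremes were *Ncoa1* at 0.375 (SE 0.32) and *Ncoa2* at -0.265 (SE 0.34). Of 7 vitamin D genes only *Gc* (-1.76, SE 1.9, adjusted p = 1) and *Cubn* (-0.905, SE 2, adjusted p = 1) were tested.

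**Figure D5:**
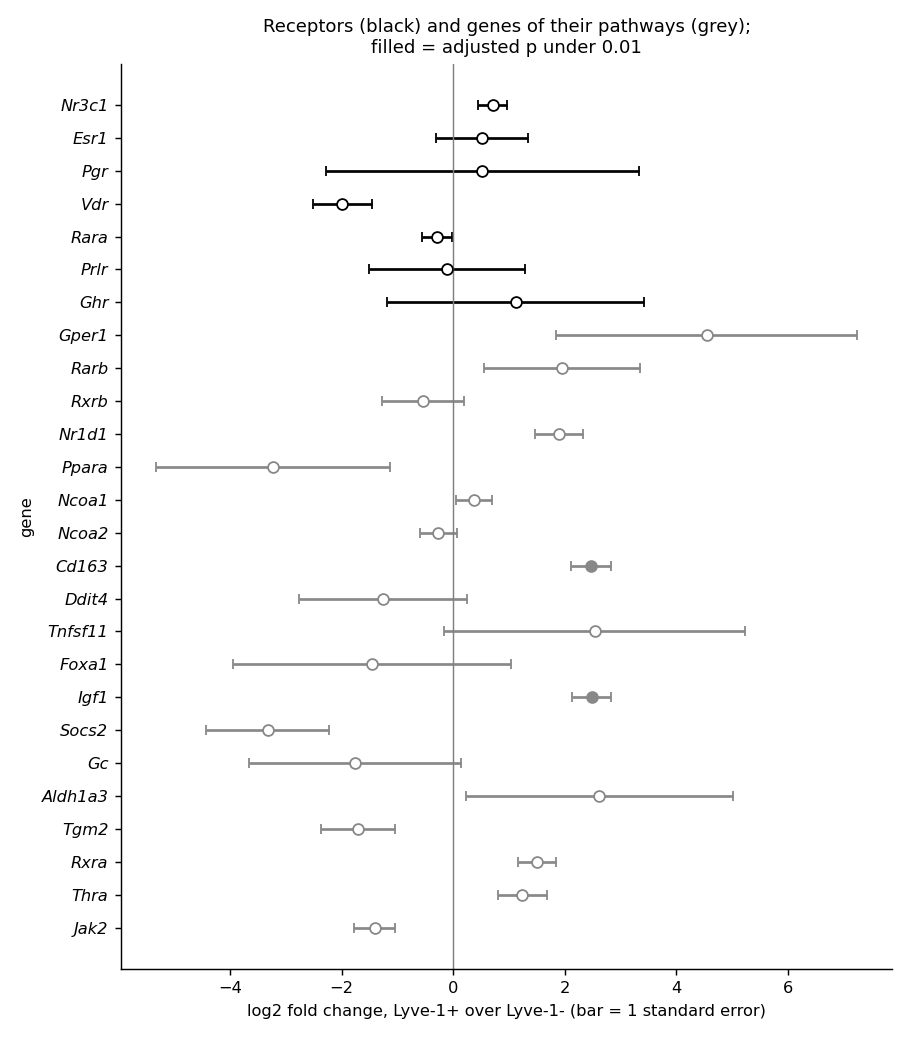
Log2 fold change (Lyve-1+ over Lyve-1-) of the receptors (black) and named pathway genes (grey), with a bar of 1 SE; filled points have an adjusted p under 0.01. *Cd163* and *Igf1* are filled, and no receptor is.

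The age of the mice was compared between 10 and 6 weeks, keeping the subset in the model. No receptor was called, nor was any gene (0% of 13348; 3.33% had an unadjusted p under 0.05, and DESeq2 called 15 genes but 0 receptors). Log2 fold changes were -1.92 for *Ghr* (SE 3.1), -0.882 for *Prlr* (SE 1.9), -0.747 for *Esr1* (SE 0.94), 0.528 for *Vdr* (SE 0.57), 0.177 for *Nr3c1* (SE 0.28) and 0.101 for *Rara* (SE 0.31), each with an adjusted p of 1. *Pgr*, with counts in 3 libraries only, was at 1.25 (SE 4.2). For the change of the subset difference with age, all adjusted p were at least 0.978 among the receptors, and 4.59% of all genes had an unadjusted p under 0.05.

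By the same measure of likeness as used for *Prlr*, the nearest genes to *Vdr* were *Adora2a* (0.287), an adenosine receptor, and *P2ry10* (0.287). For *Nr3c1* they were *Cstb* (0.0918) and *Ssr3* (0.092), for *Rara* *Nrbp1* (0.043) and *Rasgrp4* (0.0488), and for *Esr1* *Atp13a2* (0.111) and *Mcfd2* (0.126). *Ghr* was nearest to *Tnfaip8l2* (0.271) and *AI427809* (0.41), and *Pgr* to *Fam83d* (0.0613) and *4932415M13Rik* (0.0663). With 6 libraries, such likeness is a description only.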

How the data were processed

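RNA-seq was done on 6 libraries of sorted mammary macrophages, each a pool of 4 mice. The authors deposited whole-number raw counts per gene symbol, without normalization. Per the submitters' processing notes and the methods, paired 50-bp reads (SMARTer Stranded Total RNA-seq Pico kit) were aligned to mm10 with HISAT2 2.0.2 and counted with featureCounts 1.5.0; the methods also describe removal of short genes and of a 6-week library judged an outlier. The strand setting and annotation release are not given in the sources used here. The authors tested with DESeq2.

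Counts were analysed in R 4.3.3 with edgeR 4.0.16 and limma 3.58.1, and with DESeq2 1.42.0 as an alternative. The filter was filterByExpr, grouped by subset (13348 genes left), and genes were normalized by TMM and tested with edgeR's quasi-likelihood F test (robust) and Benjamini-Hochberg adjustment. Calls needed both an adjusted p below 0.01 and a change of 1 to 10 on the log2 scale. Levels per kilobase used GENCODE M21 exon unions on mm10 (22749 symbols matched directly, 926 through a synonym, 386 not). Promoter windows were RefSeq's. Within each pathway list the largest positive and negative log2 fold changes and any called gene were named, and for each receptor the 2 nearest genes. The largest negative value of the other hormone receptors is not reported here. The receptors and lists were chosen with earlier results of these data known. The statistics were tested on simulated data. Total counts bound the precision, and no columns were left unused. Alternatives were another normalization, filter, design, background subtraction and leaving out each library. Same-numbered libraries did not deviate together (correlations over genes of -0.0462, -0.00183 and -0.147), and the numbers were not treated as pairs in the main test. With 3 libraries per subset, these correlations cannot tell whether both subsets of a number came from the same mice. A fit with the replicate number as a block is given below.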

Additional observations from a re-analysis of the deposited data

How the results depend on the processing

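No receptor was called under any alternative, and *Vdr*, *Nr3c1*, *Rara* and *Esr1* kept the direction of their subset difference in all 16 and *Ghr* in the 15 that tested it. *Prlr* turned from -0.115 to 0.244 with age as a second term, 1.12 in the 10-week libraries alone and 0.0522 without both libraries with the most olfactory receptor genes (chosen after seeing the data); leaving out single libraries gave -0.698 to 0.914. *Pgr* turned to -0.239 in the 10-week libraries alone, and leaving out single libraries gave -0.12 to 6.56. The 6.56 came without Lyve-1- replicate 3, when the remaining Lyve-1- libraries had no *Pgr* count and the fitted value depended on the prior count. For age, leaving out single libraries gave -0.451 to 3.23 for *Pgr* and -0.0206 to 0.182 for *Rara*.

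Genes called between the subsets numbered 15, and 159 with DESeq2, 188 with no filter on low counts, 58 with age as a second term, 32 with at least 10 counts in every library, 84 at an adjusted p under 0.05 with no limit on the fold change, 0 without both libraries with the most olfactory receptor genes (639 at an unadjusted p under 0.05), and 1 to 81 with single libraries left out, the 1 being without Lyve-1- replicate 3. Genes called between ages numbered 0, and 15 with DESeq2, 12 with no filter on low counts and 0 to 20 with single libraries left out. With the replicate number as a block, 140 genes were called, *Vdr* was at -2.18 (adjusted p = 0.0218), *Prlr* reversed to 0.718, *Foxa1* to 0.564 and *Cubn* to 2.46. *Cubn* also reversed to 2.74 without Lyve-1- replicate 3 and Lyve-1+ replicate 1, the libraries with the most olfactory receptor genes detected. Leaving out single libraries gave -1.68 to 2.89 for *Cubn*, -3.1 to 0.592 for *Foxa1*, -0.519 to 0.129 for *Ncoa2* and -0.625 to 0.0308 for *Tsc22d3*. Over all genes the median log2 fold change, -0.0108, was -0.0841 with total library size and -0.271 with no filter. The cause of these changes was not tested.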
